A study of Mus musculus with 33 samples.

Results

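Interscapular brown fat of mice fed a high-fat diet for 4 weeks was compared with that of mice fed a normal diet for the same time. The comparison took every sample whose title gives 4 weeks, which is 3 high-fat and 3 normal diet arrays, or 6 of the 33 arrays of the series. Normal diet animals were C57BL/6J mice on the AIN-76 semi-purified diet. High-fat animals were C57BL/6J mice on AIN-76 with 39.2 kcal% fat, made up of 20% fat and 1% cholesterol, so added fat and added cholesterol cannot be told apart. All were housed singly at 24 °C with 12-hour light periods, and the labels name no transgene or drug. The labels give an age of 7 weeks for every sample, whatever its week of diet, and number the replicates without saying whether each was 1 animal. The p-values therefore measure the spread between these samples, which may be technical.

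Brown fat burns fatty acids in its mitochondria to make heat. It takes fatty acids up from lipoproteins and also makes them from citrate that leaves the mitochondria, and it makes cholesterol from acetyl-CoA through the mevalonate pathway. Transcription factors of the SREBP family switch on both synthetic pathways, the cholesterol pathway when sterols are scarce. Interferons, released by immune cells, raise GTPases of the IRG and GBP families, MHC class I and the immunoproteasome that cuts its peptides in most cell types, and in fat the resident macrophages respond as well.

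Illumina bead arrays read a transcript through the light from its probe. Levels are given as log2 intensity after background correction and quantile normalization, and a probe's level was set only against the same probe in other samples. Median intensities at week 4 ran from 148 to 168 and 31.9% to 33.5% of probes were detected, with 3 arrays per diet. Across genes the arrays correlated at 0.992 to 0.994 within a diet and at 0.987 to 0.992 between diets. The thermogenic list had 18 of 21 measured genes detected on all 6 arrays, among them the uncoupling protein gene Ucp1 at 15.28 to 15.43. Fewer cells of a type and less RNA per cell cannot be told apart in such whole-tissue RNA.

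Of 9630 genes, 115 passed an adjusted p of 0.05 at week 4 in a limma fit with Benjamini-Hochberg adjustment, which is 1.19% of the genes tested. Of these, 70 (0.727%) were higher and 45 (0.467%) lower on high-fat diet. The median difference of all genes was -0.0065 on the log2 scale. Changes were modest, with a median size of 0.64 among the called genes and a smallest of 0.31, and 16 rises and 6 falls were over 2-fold. In 114 of the 115 genes no array of one diet reached into the range of the other, against 12% of all genes lying wholly above and 12.9% wholly below. Over all 17243 kept probes, named or not, 153 passed (0.887%). The spread behind these tests was estimated over all 33 arrays. Fitted on the 6 arrays alone, 1 gene passed, Epdr1, and an exact permutation test of 3 against 3 arrays cannot go below a p of 0.1 for any gene. Leaving out 1 array left 53 calls (without normal diet replicate 3) to 113 (without high-fat replicate 3), with 54 without normal diet replicate 2 and 57 without high-fat replicate 2.

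**Figure D1:**
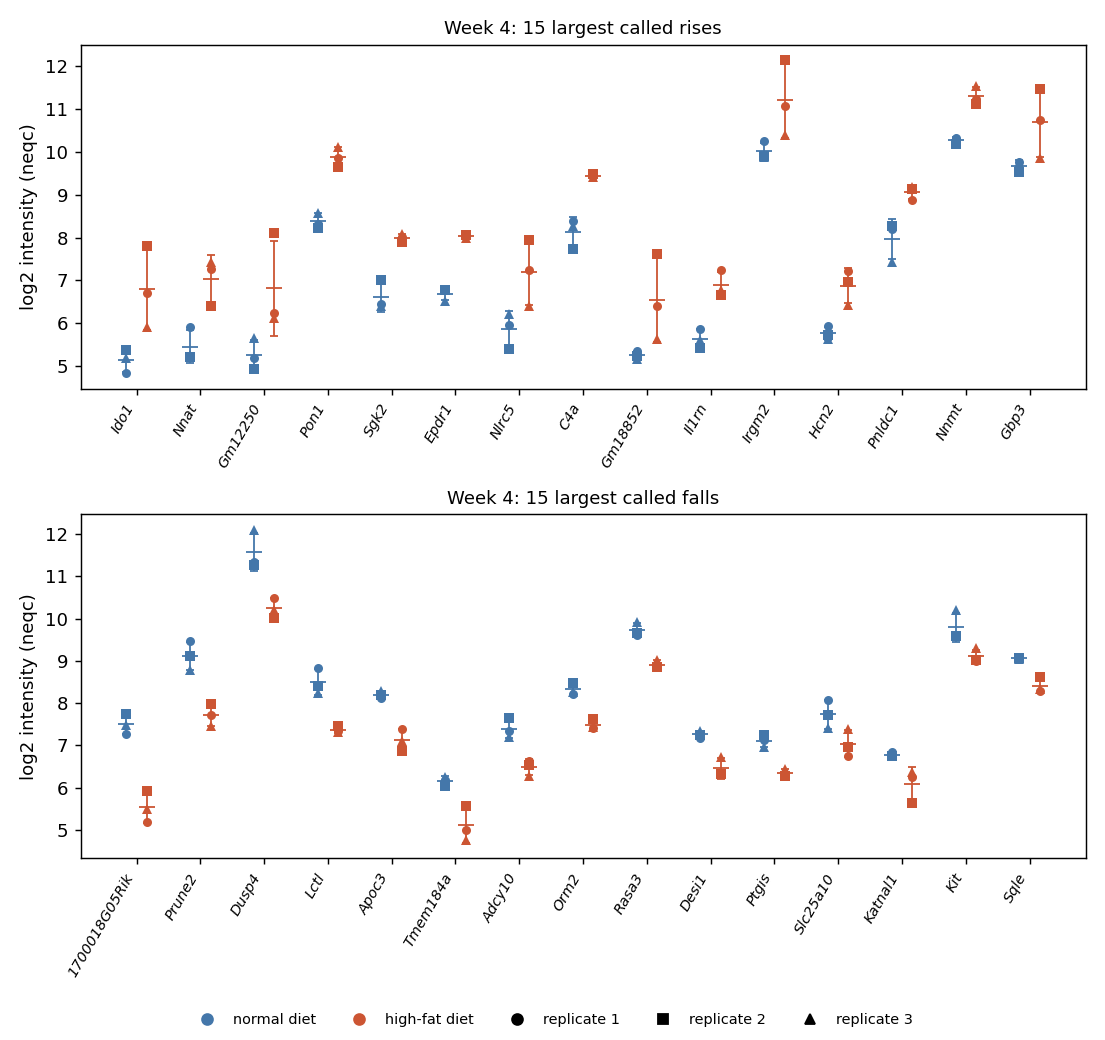
Log2 intensity on each week 4 array for the 15 largest rises (top) and the 15 largest falls (bottom) among genes that passed with no overlap. Blue is normal diet, red is high-fat diet, symbols mark the replicate number, and bars give the mean ± SD of 3 arrays. High-fat replicate 2 stands above the other high-fat arrays in Ido1, Gm12250, Nlrc5, Gm18852, Irgm2 and Gbp3, whereas Epdr1, C4a and Sgk2 are tight on high-fat diet.

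Genes of cholesterol synthesis were lower after 4 weeks of high-fat diet. Of 17 measured genes on the cholesterol list 4 fell and none rose, 15 were lower, and the list's median difference was -0.27. The farnesyl diphosphate synthase gene Fdps read 11.77, 11.71 and 11.78 on normal diet and 11.20, 11.18 and 10.97 on high-fat diet, in the order of replicates 1, 2 and 3. No high-fat array reached the lowest normal diet array, and the difference was -0.63 (SE 0.11, adjusted p = 0.00188). The other kept probe of Fdps was dim and differed by -0.03. The squalene epoxidase gene Sqle was almost level over the normal diet arrays at 9.08, 9.08 and 9.04 and stood at 8.28, 8.61 and 8.33 on high-fat diet. It fell by 0.66 (SE 0.14, adjusted p = 0.0103). The lanosterol demethylase gene Cyp51 fell by 0.56 (SE 0.11, adjusted p = 0.00634), from 8.57 to 8.74 on normal diet to 8.05 to 8.12 on high-fat diet. The phosphomevalonate kinase gene Pmvk fell by 0.56 as well (SE 0.13, adjusted p = 0.026). Fdps and Cyp51 passed when any 1 array was left out, whereas Sqle was lost without normal diet replicate 2 or high-fat replicate 1 and Pmvk whichever of the 6 arrays was left out. Cyp51 was lost, however, when array medians were aligned instead of whole distributions (adjusted p = 0.0805 in limma). Fdps was lost when the mean of its kept probes was used.

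Fatty acid synthesis genes moved the same way. Of 20 measured genes 4 fell and none rose, 18 were lower and 13 lay wholly below normal diet (12.9% of all genes did), and the median difference was -0.21. Slc25a1, the mitochondrial carrier that exports citrate for lipid synthesis, read 13.84, 13.94 and 13.69 on normal diet and 13.14, 13.31 and 13.09 on high-fat diet. The groups were apart, and it fell by 0.64 (SE 0.13, adjusted p = 0.00751). Me1, the malic enzyme that supplies NADPH, fell by 0.63 (SE 0.16) with an adjusted p of 0.0483, at the edge of the threshold, and was lost whichever of the 6 arrays was left out. Genes of 2 fatty acid elongases fell. Elovl5, which lengthens polyunsaturated fatty acids, stood at 13.32, 13.45 and 13.34 on normal diet and 12.83, 12.88 and 12.72 on high-fat diet (difference -0.56, SE 0.10, adjusted p = 0.00355). Elovl6, which lengthens palmitate to stearate, went from 13.91 ± 0.14 to 13.41 ± 0.16 (SD, n = 3 each, adjusted p = 0.0187). Without normal diet replicate 2 only Elovl5 of the 4 still passed, and of the 8 called genes of both lists 3 to 6 did when 1 array was left out. The fatty acid synthase gene Fasn, at 10.64, 10.67 and 10.42 against 9.75, 10.03 and 10.03, had a difference of -0.64 and missed the threshold (adjusted p = 0.0535). The stearoyl-CoA desaturase gene Scd1, read 15.90 to 16.01 on all 6 arrays (difference -0.07, adjusted p = 0.713), close to the brightest value on the arrays at 16.09, where a change may not be readable.

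Car5b, a mitochondrial carbonic anhydrase gene, and Slc25a10, the mitochondrial dicarboxylate carrier gene, also fell. Slc25a10 read 8.07, 7.72 and 7.40 on normal diet and 6.76, 6.97 and 7.39 on high-fat diet, so replicates 3 of the diets nearly met (difference -0.69, SE 0.15, adjusted p = 0.0185). Its call was lost without replicate 1 or 2 of either diet. Car5b was named after its values were seen and fell by 0.57 (SE 0.12, adjusted p = 0.0142), a call lost without normal diet replicate 3 or high-fat replicate 2.

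The promoters of 3 of these falling genes are shown as the 250 bases before the RefSeq start (build GRCm38.p6), read 5′ to 3′ on the gene's strand, since lipid synthesis genes moved together and many carry a CCAAT box read by the factor NF-Y. Capitals mark CCAAT or its reverse complement ATTGG.
Cyp51, chr5:4104698-4104947, minus strand: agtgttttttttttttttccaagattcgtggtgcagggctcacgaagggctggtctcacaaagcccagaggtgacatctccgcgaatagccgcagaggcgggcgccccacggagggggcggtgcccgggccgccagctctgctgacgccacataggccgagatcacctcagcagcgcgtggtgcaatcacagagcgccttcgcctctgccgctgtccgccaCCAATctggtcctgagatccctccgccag
Slc25a1, chr16:17928220-17928469, minus strand: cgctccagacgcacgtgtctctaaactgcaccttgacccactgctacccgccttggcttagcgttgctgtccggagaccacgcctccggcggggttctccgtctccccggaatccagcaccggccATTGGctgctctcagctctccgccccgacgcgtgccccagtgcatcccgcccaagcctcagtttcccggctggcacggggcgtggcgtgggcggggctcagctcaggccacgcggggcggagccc
Elovl5, chr9:77917115-77917364, plus strand: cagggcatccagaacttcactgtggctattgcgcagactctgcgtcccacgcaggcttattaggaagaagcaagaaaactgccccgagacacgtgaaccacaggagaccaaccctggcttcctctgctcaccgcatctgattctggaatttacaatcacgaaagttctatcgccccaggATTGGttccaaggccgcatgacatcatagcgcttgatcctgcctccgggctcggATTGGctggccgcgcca
Of the 8 called cholesterol and fatty acid synthesis genes 6 had a window in the RefSeq table, and 5 of these held CCAAT on either strand. Over all measured genes of both lists it was 27 of 31, or 87.1%, against 37.5% of all 27025 genes with a window. The letters TCACNCCAC, an SREBP-type motif searched on both strands were in none of the 6 windows and in 1.22% of all genes. A match of letters is a description and no evidence of binding.

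Uptake, oxidation and thermogenesis showed few calls. The heart-type fatty acid binding protein gene Fabp3, which carries fatty acids in oxidative tissues, read 14.48, 14.50 and 14.37 on normal diet and 15.16, 15.03 and 15.15 on high-fat diet. The arrays of each diet lay close together and far from the other diet, and Fabp3 rose by 0.66 (SE 0.09, adjusted p = 9.83e-05). It was the only one of 17 measured uptake and binding genes to pass. On the fatty acid oxidation list 0 of 26 genes passed in limma at the adjusted threshold and 2 had an unadjusted p under 0.05. Of the 26, 22 were higher, 12 lay wholly above normal diet (12% of all genes did) and the median was 0.10. The largest difference was in Acadl, the long-chain acyl-CoA dehydrogenase gene, with 12.79, 12.77 and 12.89 against 13.20, 13.16 and 13.20 (difference 0.37, SE 0.13, adjusted p = 0.177). Another bright kept probe of Acadl differed by -0.04 and a dim one by 0.06. Acaa2, the thiolase of the last step of the cycle, differed by 0.27 (adjusted p = 0.399), and Cpt1b, the carnitine palmitoyltransferase of muscle and brown fat, by 0.07 (adjusted p = 0.857).

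Thermogenic genes did not pass either, with 0 of 21 called by limma, 1 at an unadjusted p under 0.05 and a median of 0.08. Ucp1 read 15.32, 15.28 and 15.40 on normal diet and 15.31, 15.43 and 15.43 on high-fat diet, overlapping, with a difference of 0.06 (SE 0.11, adjusted p = 0.897). The brightest value on the arrays was 16.09, so Ucp1 lay close to the top of the scale. Ppargc1a, the coactivator of mitochondrial biogenesis, was dimmer at 9.44 to 9.78 and 9.77 to 10.01 (difference 0.34, SE 0.31, adjusted p = 0.736) and overlapped between diets. Nuclear subunits of oxidative phosphorylation had 0 of 28 called, 3 at an unadjusted p under 0.05 and a median of 0.02. Branched-chain amino acid breakdown had 0 of 18 called, 0 at an unadjusted p under 0.05, 17 higher and a median of 0.11. Some mitochondrial genes outside these lists passed, named after their values were seen. Perm1, a muscle regulator of mitochondrial genes, rose by 0.84 (SE 0.17, adjusted p = 0.00935), with 8.96, 8.76 and 8.81 against 9.77, 9.67 and 9.62. Idh2, the mitochondrial isocitrate dehydrogenase, rose by 0.53 (SE 0.12, adjusted p = 0.0176), and the carrier gene Slc25a34 by 0.71 (SE 0.15, adjusted p = 0.00989). The call of Perm1 was lost without normal diet replicate 2, that of Slc25a34 without normal diet replicate 1 or 2 or high-fat replicate 1, and that of Idh2 when any array other than high-fat replicate 1 was left out. With the median shift, which aligns array medians instead of whole distributions, Perm1 and Idh2 did not pass.

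**Figure D2:**
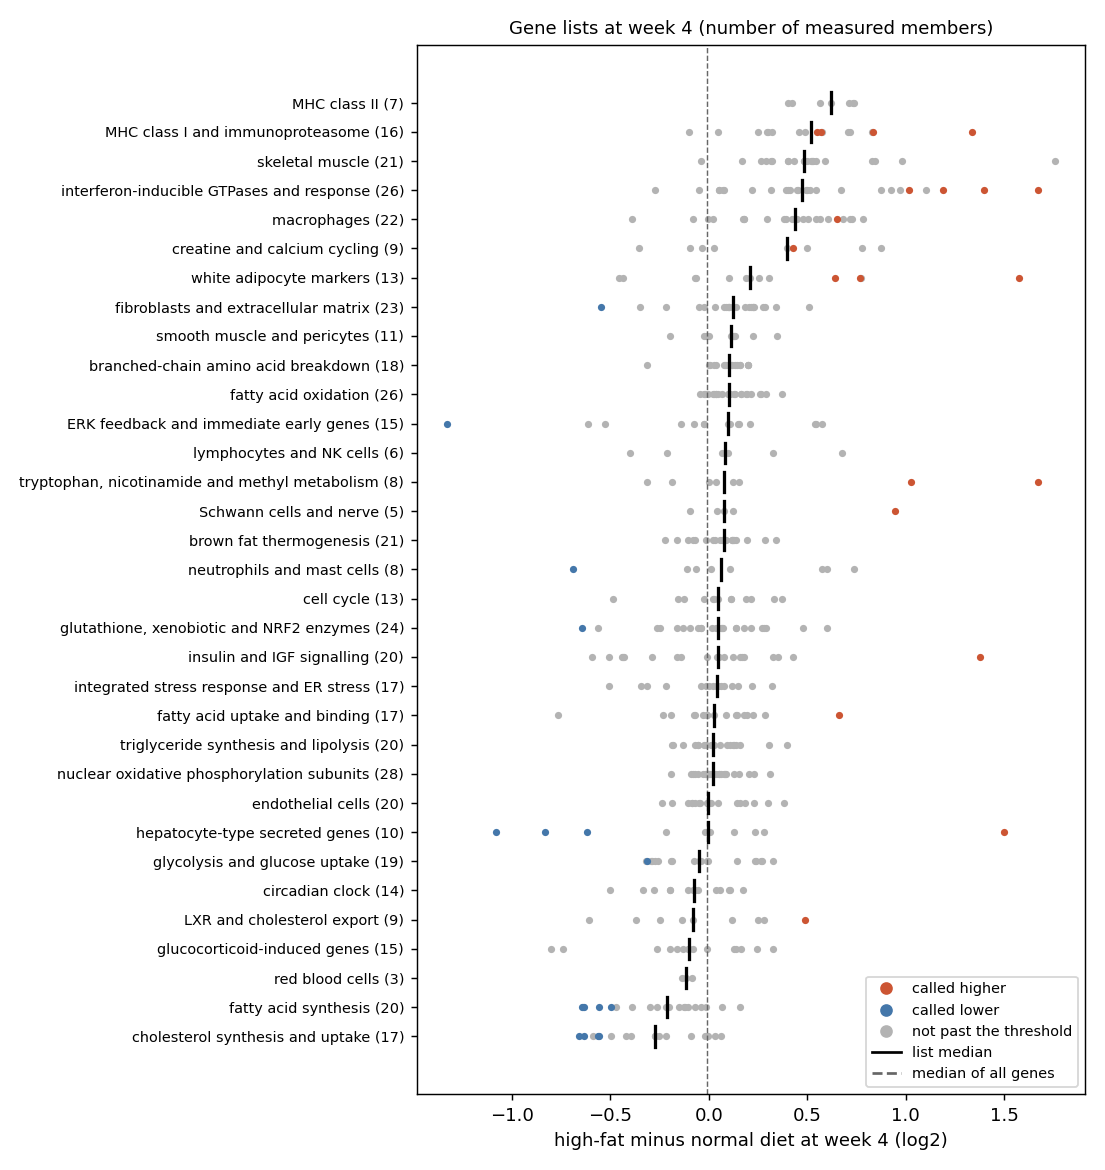
High-fat minus normal diet difference at week 4 (log2) of each measured member of the 33 gene lists, with red for genes called higher, blue for genes called lower, grey for the rest, a black bar for the list median and a dashed line at the median of all genes. MHC class II stands highest with a median of 0.62 and no call, and cholesterol synthesis lowest with -0.27 and 4 calls. Without high-fat replicate 2 the class II median is 0.38 and that of skeletal muscle 0.56.

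Glycolytic genes leaned down with 1 call in 19 and a median of -0.05. The aldolase gene Aldoa fell from 15.09, 15.03 and 15.08 to 14.73, 14.78 and 14.75 (difference -0.32, SE 0.08, adjusted p = 0.0306), a small change with no overlap that no longer passed whichever of the 6 arrays was left out, nor with the median shift. The lactate dehydrogenase gene Ldha differed by -0.27 (adjusted p = 0.071) and Gapdh by -0.29 (adjusted p = 0.0797), and in both the arrays of the diets did not overlap. In all, 8 of the 19 lay wholly below normal diet, against 12.9% of all genes.

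Interferon-response and antigen presentation genes were higher on high-fat diet, and most so on 1 array. On the interferon list 4 of 26 measured genes rose (Ido1, Irgm2, Gbp3 and Igtp), none fell, 24 were higher and the median was 0.48. On the MHC class I and immunoproteasome list 4 of 16 rose (Nlrc5, B2m, H2-D1 and Psmb8), none fell, 15 were higher and the median was 0.52. High-fat replicate 2 was the highest high-fat array for 25 of the 26 and for 16 of the 16 genes. The interferon list averaged 8.47, 8.36 and 8.43 on normal diet and 8.90, 9.52 and 8.51 on high-fat diet.

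The dioxygenase gene Ido1, which breaks down tryptophan, read 4.84, 5.38 and 5.18 on normal diet, where it was not well above background on any array, and 6.71, 7.79 and 5.90 on high-fat diet. It was at least 1.66-fold higher, taking as floor the mean over arrays of the lowest detected signal or the probe's own value (adjusted p = 0.00168). The IRG GTPase gene Irgm2 stood at 10.25, 9.91 and 9.88 on normal diet and at 11.08, 12.15 and 10.40 on high-fat diet (difference 1.19, SE 0.25, adjusted p = 0.0119). In both genes the high-fat arrays spanned more than the difference between the diet means. Igtp, another IRG GTPase gene, ran from 9.65 on high-fat replicate 3 to 12.21 on replicate 2, and replicate 3 lay below normal diet replicate 1 at 9.73. Igtp alone among the 115 called genes overlapped between diets, and its adjusted p was 0.0483 (difference 1.40, SE 0.35). The guanylate-binding protein gene Gbp3 read 9.76, 9.53 and 9.75 and then 10.74, 11.48 and 9.87 (difference 1.02, SE 0.24, adjusted p = 0.0323).

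Antigen presentation genes followed the same arrays. Nlrc5, the transactivator of MHC class I genes, was detected on 1 normal diet array and on all 3 high-fat arrays. It read 5.97, 5.40 and 6.22 on normal diet and 7.25, 7.94 and 6.41 on high-fat diet (difference 1.34, SE 0.26, adjusted p = 0.00666). B2m, the light chain of MHC class I, went from 13.94, 13.73 and 13.90 to 14.23, 14.82 and 14.23 (difference 0.57, SE 0.13, adjusted p = 0.0198). Here high-fat replicates 1 and 3 were level, both above normal diet. The heavy chain gene H2-D1 differed by 0.55 (SE 0.13, adjusted p = 0.0257), and MHC class I genes are alike enough in sequence for a probe to read several. The immunoproteasome subunit gene Psmb8 differed by 0.83 (SE 0.20, adjusted p = 0.0346).

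Without high-fat replicate 2, only Ido1 of these 8 genes still passed, and the list medians were 0.27 for interferon and 0.26 for MHC class I. Without normal diet replicate 2 it was again Ido1 alone, and without normal diet replicate 3 Ido1 and Nlrc5. All 8 kept a positive difference when any 1 of the 6 arrays was left out, the lowest being 0.37. Ido1, Nlrc5 and Irgm2 alone of the 8 passed with the median shift, and the same 3 when same-numbered replicates of a week were blocked.

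**Figure D3:**
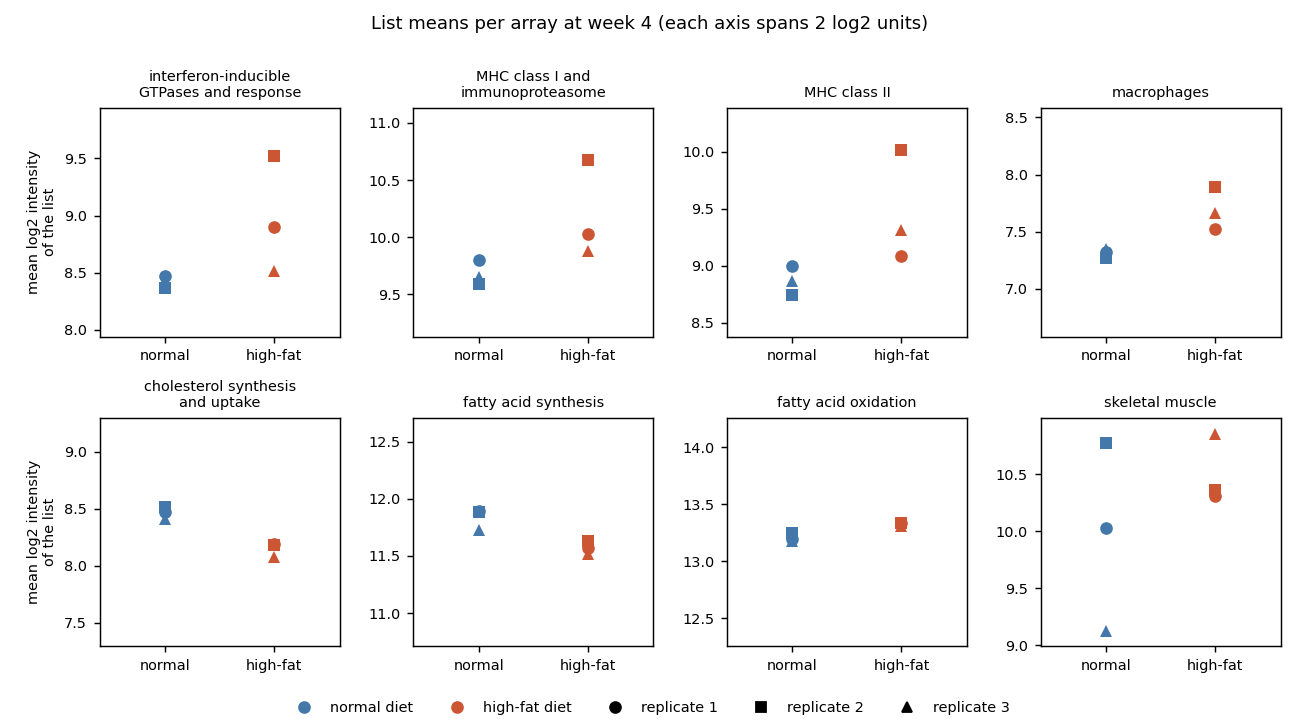
Mean log2 intensity of 8 gene lists on each week 4 array (blue normal diet, red high-fat diet, symbols for replicate number, each vertical axis spanning 2 log2 units). High-fat replicate 2 lies far above the other high-fat arrays in the interferon and both MHC lists, the cholesterol and fatty acid synthesis arrays separate by diet, and the skeletal muscle mean of normal diet replicate 3 is the lowest at 9.13.

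The 250 bases before the RefSeq start (GRCm38.p6, 5′ to 3′ on the gene's strand) are shown for 4 rising genes of this group because interferon regulatory factors read repeats of GAAA. Capitals mark 2 copies of GAAA with any 2 bases between them, or the reverse complement, 2 copies of TTTC spaced alike.
Igtp, chr11:58199306-58199555, plus strand: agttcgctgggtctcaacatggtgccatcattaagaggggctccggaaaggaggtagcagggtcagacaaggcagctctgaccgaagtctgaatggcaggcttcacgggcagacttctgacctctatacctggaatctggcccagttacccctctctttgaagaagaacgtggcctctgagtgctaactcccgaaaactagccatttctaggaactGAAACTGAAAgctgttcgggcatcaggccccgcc
Irgm2, chr11:58214727-58214976, plus strand: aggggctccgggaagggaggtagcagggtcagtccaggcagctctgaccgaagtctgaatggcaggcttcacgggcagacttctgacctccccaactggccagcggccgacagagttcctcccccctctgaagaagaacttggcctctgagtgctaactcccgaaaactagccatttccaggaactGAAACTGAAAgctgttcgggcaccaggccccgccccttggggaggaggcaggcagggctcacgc
Gm12250, chr11:58183593-58183842, plus strand: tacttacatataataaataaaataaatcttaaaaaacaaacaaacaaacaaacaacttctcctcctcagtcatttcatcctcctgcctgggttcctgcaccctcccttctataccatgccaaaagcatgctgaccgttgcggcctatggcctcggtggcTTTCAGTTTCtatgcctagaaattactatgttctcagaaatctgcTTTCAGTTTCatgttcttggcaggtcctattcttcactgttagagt
B2m, chr2:122147437-122147686, plus strand: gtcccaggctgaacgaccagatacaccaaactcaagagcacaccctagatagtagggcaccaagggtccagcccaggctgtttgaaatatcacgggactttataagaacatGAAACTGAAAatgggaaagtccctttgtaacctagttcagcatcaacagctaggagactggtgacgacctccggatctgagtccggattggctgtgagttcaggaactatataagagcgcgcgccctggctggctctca
The match lies 34 bases before the start in Igtp, 64 in Irgm2 and 139 in B2m, and Gm12250 has matches at 91 and 46. Igtp, Irgm2 and Gm12250 lie near each other on chromosome 11, and the windows of Igtp and Irgm2 share an unbroken run of 55 identical bases, so they are not independent. Both strands were searched. Of the 8 called interferon and MHC class I genes 6 had a window and 4 of these held the motif, as did 15 of 36 measured genes of both lists, or 41.7%. Among all genes with a window it was 3.46%. The match shows letters in a window and nothing about binding.

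Gm12250, named Irgb10 among its RefSeq synonyms and so an IRG GTPase gene, was not well above background on normal diet at 5.19, 4.93 and 5.65 and was detected on all high-fat arrays at 6.24, 8.10 and 6.12. It was at least 1.68-fold higher (adjusted p = 0.0145), and high-fat replicate 2 again stood apart. Gm18852, a transcribed pseudogene in RefSeq, showed the same order, with 5.36, 5.22 and 5.17 against 6.41, 7.61 and 5.64 (at least 1.39-fold higher, adjusted p = 0.0446). Without high-fat replicate 2 neither passed.

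MHC class II genes, carried by macrophages, dendritic cells and B cells, had 0 of 7 called by limma and 6 at an unadjusted p under 0.05, while 7 of 7 were higher and the median was 0.62. The invariant chain gene Cd74 read 11.47, 11.16 and 11.19 on normal diet and 11.72, 12.49 and 11.81 on high-fat diet, with no overlap (difference 0.74, SE 0.20, adjusted p = 0.0591). H2-Aa and H2-Ab1, class II chains, differed by 0.72 and 0.74 (adjusted p = 0.0612 each). High-fat replicate 2 was the highest of its diet for 7 of 7, and without it the median was 0.38.

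Macrophage markers were higher with 1 call in 22. Of the 22, 19 were higher, 14 lay wholly above normal diet (12% of all genes did) and the median was 0.44, with 17 detected on all 6 arrays. The complement gene C1qa, made by tissue macrophages, read 6.74, 6.46 and 6.71 on normal diet and 7.31, 7.28 and 7.28 on high-fat diet. The high-fat arrays were level and all above normal diet, and C1qa rose by 0.65 (SE 0.13, adjusted p = 0.00751), a call lost without normal diet replicate 2. Its partner C1qb differed by 0.61 (adjusted p = 0.0585), the lysozyme gene Lyz2 by 0.73 and the Fc receptor chain gene Fcer1g by 0.78 (adjusted p = 0.0612 each). The list averaged 7.33, 7.27 and 7.35 on normal diet and 7.52, 7.89 and 7.66 on high-fat diet, so every high-fat array was above every normal diet array. High-fat replicate 2 was the highest high-fat array for 17 of the 22 genes, and without it the median was 0.38. The part of macrophage number in the interferon and MHC values was not tested. Further called genes expressed in macrophages were named after their values were seen. Mgl2, a macrophage lectin, rose by 0.75 (SE 0.14, adjusted p = 0.00662), from 8.37, 7.99 and 8.08 to 8.76, 9.12 and 8.82. Its call was lost without high-fat replicate 2 or normal diet replicate 2 and with the mean of its kept probes. The other kept probe of Mgl2 differed by 0.16. Retnla, made by alternatively activated macrophages and by fat cells in mice, rose by 0.97 (SE 0.22, adjusted p = 0.0229), and Casp1, the inflammasome protease, by 0.82 (SE 0.16, adjusted p = 0.00662). Casp1 was lost without replicate 2 of either diet, and Retnla also without normal diet replicate 3 or high-fat replicate 1.

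Few markers of other white blood cells could be read. Of 6 measured lymphocyte and NK cell genes none passed, and 2 were detected on all 6 arrays. Of 8 neutrophil and mast cell genes 4 were detected on none of the 6. In this list 5 genes were higher and 3 lower, and the median was 0.06. Its dim members Mcpt4 and Cpa3 were higher, with means of 4.93 and 4.87 on normal diet and 5.67 and 5.45 on high-fat diet, and were not called. The only call was Kit, a receptor that other cells also carry. Kit fell from 9.61, 9.59 and 10.19 to 9.01, 9.02 and 9.29 (difference -0.69, SE 0.16, adjusted p = 0.0254). Without normal diet replicate 3, its highest array, the difference in Kit was -0.49 and did not pass, nor did Kit pass without high-fat replicate 1 or 2 or with the median shift. Endothelial genes had 0 of 20 called, 3 at an unadjusted p under 0.05 and a median of -0.0029.

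Il1rn, the antagonist of the interleukin-1 receptor, did not follow high-fat replicate 2. It read 5.88, 5.41 and 5.62 on normal diet, not well above background there, and 7.24, 6.65 and 6.79 on high-fat diet, at least 1.77-fold higher (adjusted p = 0.00191). The complement gene C4a rose, with level high-fat arrays and normal diet replicate 2 below its group. It stood at 8.38, 7.73 and 8.27 on normal diet and at 9.43, 9.48 and 9.41 on high-fat diet (difference 1.31, SE 0.16, adjusted p = 5.17e-05). Its neighbour C4b, named after its values were seen, rose by 0.79 (SE 0.12, adjusted p = 0.000757). The copies are near-identical, so which of them a probe read is uncertain.

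The other large rises had mixed roles, and Nnat, Sgk2 and Epdr1 passed when any 1 array was left out. Nnat, an imprinted gene of fat and brain, was not well above background on normal diet at 5.91, 5.21 and 5.25 and read 7.28, 6.40 and 7.42 on high-fat diet, at least 1.95-fold higher (adjusted p = 0.00465). Its other kept probes, both dim, differed by 0.17 and 0.40. The kinase gene Sgk2 rose from 6.44, 7.01 and 6.39 to 8.01, 7.89 and 8.08 (difference 1.38, SE 0.27, adjusted p = 0.00666), and its other kept probe differed by 1.99. Epdr1, for an ependymin-related secreted protein, read 6.79, 6.77 and 6.53 and then 8.04, 8.06 and 8.00 (difference 1.34, SE 0.23, adjusted p = 0.0022). The high-fat arrays of Epdr1 were almost level. The pacemaker channel gene Hcn2 was not well above background on normal diet and read 7.23, 6.96 and 6.43 after high-fat feeding, at least 1.74-fold higher (adjusted p = 0.0257), a call lost without high-fat replicate 1 or 2 or normal diet replicate 2 or 3. Hmga2-ps1, a pseudogene of Hmga2, was also detected on every high-fat array and no normal diet array, at 6.01 to 6.23 against 5.18 to 5.65, at least 1.06-fold higher (adjusted p = 0.0145), a call lost without normal diet replicate 1 or 2 or high-fat replicate 2 or 3. Pnldc1, an exonuclease gene, rose by 1.10 (SE 0.23, adjusted p = 0.0108), with normal diet replicate 3 lowest at 7.43, and it no longer passed without that array or without high-fat replicate 2.

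The nicotinamide methyltransferase gene Nnmt, which uses up methyl groups and is high in fat of obese mice, read 10.34, 10.19 and 10.31 and then 11.24, 11.13 and 11.55. It rose by 1.03 (SE 0.20, adjusted p = 0.00666). With Ido1 it made 2 rises among 8 measured tryptophan, nicotinamide and methyl metabolism genes, whose median was 0.08. Over 18 alternative settings that median ran from -0.0035 to 0.22, the latter without normal diet replicate 3.

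Among falls the strongest was in 1700018G05Rik, a long non-coding RNA in RefSeq, detected on all 3 normal diet arrays at 7.27, 7.75 and 7.48 and on no high-fat array at 5.19, 5.93 and 5.49. It was at least 2.85-fold lower on high-fat diet (adjusted p = 5.17e-05). Prune2 fell by 1.40 (SE 0.17, adjusted p = 5.17e-05), from 9.46, 9.11 and 8.79 to 7.71, 7.99 and 7.46. Dusp4, a phosphatase that switches off ERK, read 11.34, 11.27 and 12.09 on normal diet, where replicate 3 was high, and 10.49, 10.02 and 10.21 on high-fat diet. It fell by 1.33 (SE 0.24, adjusted p = 0.00375), its 3 other kept probes differed by -0.81 to -1.34, and it still passed without replicate 3. No other of the 15 measured ERK feedback and immediate early genes passed, and the ERK inhibitor gene Spred1 differed by -0.53 (adjusted p = 0.0585). Lctl, a klotho-family gene, fell from 8.83, 8.41 and 8.23 to 7.34, 7.47 and 7.31 (difference -1.12, SE 0.18, adjusted p = 0.00149). Adcy10, the bicarbonate-stimulated adenylyl cyclase, fell by 0.91 (SE 0.16, adjusted p = 0.00263).

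Further falls, other than that of Tmem184a, were under 2-fold. Rasa3, which turns off Ras and Rap proteins, fell by 0.82 (SE 0.17, adjusted p = 0.0101), Desi1, a protease that removes SUMO, by 0.80 (SE 0.19) and Ptgis, the prostacyclin synthase gene, by 0.77 (SE 0.18). Katnal1, a katanin-like gene, fell by 0.69 (SE 0.15). Rasa3 was lost without normal diet replicate 3 or high-fat replicate 2, Ptgis without replicate 1 or 2 of either diet, and Katnal1 when any 1 normal diet array or high-fat replicate 2 was left out. Desi1 was lost when any array other than high-fat replicate 3 was left out, and both Desi1 and Katnal1 were lost with the median shift. Tmem184a was detected on 2 normal diet arrays and no high-fat array, and was at least 1.13-fold lower. Its fitted difference was -1.05 (SE 0.17, adjusted p = 0.00149).

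Genes best known from liver split by direction, with 1 rise and 3 falls among 10 measured and a median of -0.0046. Pon1, a lipoprotein-associated paraoxonase, read 8.33, 8.23 and 8.59 and then 9.87, 9.65 and 10.12, and rose by 1.50 (SE 0.21, adjusted p = 0.000247). Apoc3, an apolipoprotein that slows triglyceride clearance, fell from 8.13, 8.18 and 8.29 to 7.39, 6.87 and 7.10 (difference -1.08, SE 0.22, adjusted p = 0.00899), a call lost without normal diet replicate 3 or high-fat replicate 2. The acute-phase genes Orm1 and Orm2 fell by 0.62 and 0.83 (SE 0.13 and 0.15), and as paralogs they may share probes. Orm1 stood at 13.06 to 13.29 on normal diet and 12.52 to 12.62 on high-fat diet, and was lost without normal diet replicate 2.

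White adipocyte markers had 3 rises in 13 measured genes, Nnat, Sncg and Dpt, and a median of 0.21. Sncg, for gamma-synuclein, read 9.64, 9.38 and 9.21 and then 10.23, 9.97 and 10.33 (difference 0.77, SE 0.16, adjusted p = 0.0103). Dpt, a matrix gene of fat and skin, rose by 0.64 (SE 0.15, adjusted p = 0.0216). Sncg was lost without normal diet replicate 2 or 3 or high-fat replicate 3, and Dpt when any array other than normal diet replicate 1 was left out and with the median shift. The leptin gene Lep, highest in full white fat cells, read 8.08, 7.49 and 8.26 and then 8.72, 8.21 and 9.22, overlapping (difference 0.78, SE 0.29, adjusted p = 0.211). The adiponectin gene Adipoq differed by 0.10 (adjusted p = 0.681). In the matrix list 1 of 23 genes was called, the collagen cross-linking enzyme gene Lox, which fell from 9.73, 9.65 and 9.80 to 9.35, 9.12 and 9.08 (difference -0.55, SE 0.14, adjusted p = 0.0483), while the list's median was 0.13. Lox was lost when any array other than high-fat replicate 1 was left out, with the median shift and with the muscle covariate.

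Skeletal muscle genes differed widely between arrays of one diet. The list averaged 10.03, 10.77 and 9.13 on normal diet and 10.31, 10.36 and 10.85 on high-fat diet, with 0 of 21 called by limma, 2 at an unadjusted p under 0.05, 20 higher and a median of 0.48. Without normal diet replicate 3 that median was 0.01. The slow troponin gene Tnnt1 ran from 7.29 on normal diet replicate 3 to 11.01 on high-fat replicate 3 (difference 1.76, SE 0.66, adjusted p = 0.221), and myoglobin, Mb, from 9.15 to 11.37 on the same arrays. Creatine and calcium cycling genes, several of which muscle shares, had a median of 0.40 that came to 0.02 once the muscle mean was fitted as a covariate. In that list the calcium pump gene Atp2a2 rose by 0.43 (SE 0.09, adjusted p = 0.0145), with 11.79, 11.97 and 11.95 against 12.35, 12.29 and 12.37. Atp2a2 passed with the covariate and was lost with the median shift and without normal diet replicate 1 or high-fat replicate 1 or 3. With that covariate 119 genes were called over the whole array.

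A few further list members passed. The glial and fat gene S100b rose by 0.95 (SE 0.18, adjusted p = 0.00634), from 6.45, 6.19 and 6.15 to 7.20, 7.02 and 7.41. S100b was the 1 call among 5 measured Schwann cell and nerve genes, whose median was 0.08. Cyp27a1, the sterol 27-hydroxylase that makes an oxysterol, rose by 0.49 (SE 0.10, adjusted p = 0.00881), from 11.34 to 11.44 on normal diet to 11.83 to 11.90 on high-fat diet. Cyp27a1 was lost without normal diet replicate 3 and with the median shift. It was the 1 call among 9 measured genes of the cholesterol export list, of which 4 were higher and 5 lower. The median of that list was -0.08, with 3 genes wholly above and 4 wholly below normal diet (12% and 12.9% of all genes were). The cholesterol exporter gene Abcg1 differed by -0.61 and did not pass (adjusted p = 0.0612). Gsta3, a glutathione transferase gene, fell by 0.64 (SE 0.15, adjusted p = 0.0317), a call lost without normal diet replicate 1 or 3 or high-fat replicate 2, with the median shift and with the muscle covariate. No gene passed on the lists of triglyceride synthesis and lipolysis (20), smooth muscle (11), cell cycle (13), glucocorticoid response (15), circadian clock (14), stress response (17) or red blood cells (3).

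The week 4 calls were then set beside the other weeks, each of which had its own 3 normal and 3 high-fat arrays. Of the 115 genes 110 had the same sign at week 2, 103 at week 8, and 80 at all 5 weeks. At week 2, where 183 genes (1.9%) were called, 45 genes were shared, which is 39.1% of the week 4 calls and 24.6% of those of week 2. At week 8, where 202 (2.1%) were called, 41 were shared (35.7% and 20.3%). At week 20, where 449 (4.66%) were called, 41 were shared (35.7% and 9.13%). At week 24, where 1960 (20.4%) were called, 73 were shared (63.5% and 3.72%). Of the 115 genes, 20 passed at week 4 only, among them Rasa3, Pnldc1, Desi1, Lox, Retnla and Hmga2-ps1. No gene passed the test of the week 4 difference against the mean of the other 4 weeks by limma (smallest adjusted p = 0.0632, 723 genes at an unadjusted p under 0.05), nor against week 2 (smallest 0.244, 524 genes), so none of these can be called particular to week 4.

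**Figure D4:**
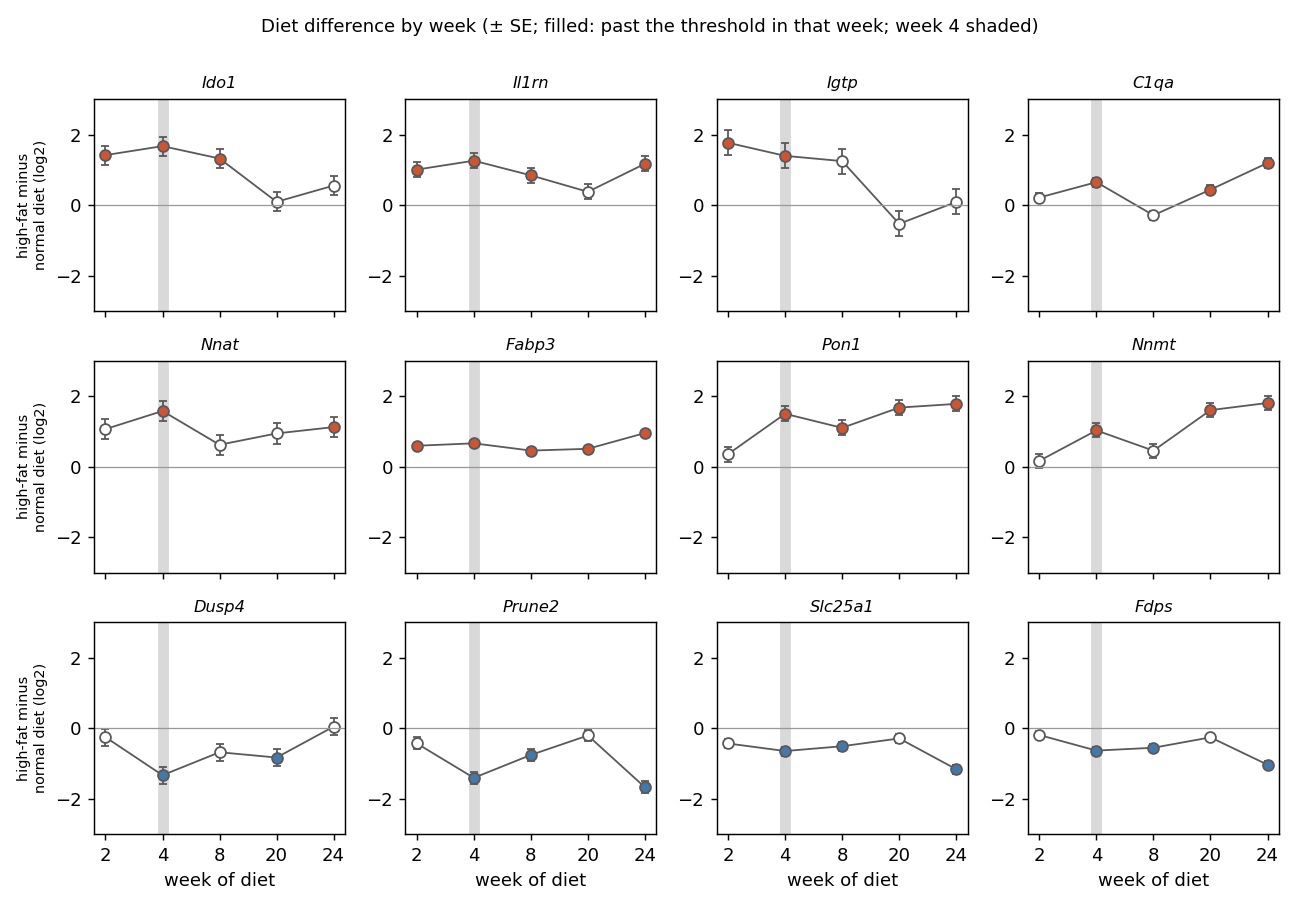
High-fat minus normal diet difference (log2, ± SE of the fit, 3 arrays per diet and week) of 12 genes at weeks 2, 4, 8, 20 and 24, with filled points where the gene passed in that week and week 4 shaded; the weeks are drawn evenly spaced. Igtp lies at 1.25 to 1.77 at weeks 2, 4 and 8 and at -0.53 and 0.09 at weeks 20 and 24, and Fabp3 passes at every week.

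Among the interferon genes, Irgm2 differed by 1.51 at week 2, 1.19 at week 4, 1.10 at week 8, -0.35 at week 20 and 0.37 at week 24. Igtp differed by 1.77, 1.40, 1.25, -0.53 and 0.09 at the same weeks. Their lists had medians of 0.60 at week 2, 0.48 at week 4, 0.38 at week 8, -0.17 at week 20 and 0.40 at week 24 (interferon) and of 0.47, 0.52, 0.47, -0.17 and 0.26 (MHC class I). Macrophage markers took another course, with medians of 0.29, 0.44, -0.10, 0.23 and 1.49. Pon1 differed by 0.36 at week 2 and 1.50 at week 4, and Nnmt by 0.17 and 1.03, while the test of week 4 against week 2 passed for neither. Dusp4 differed by -0.25, -1.33, -0.68, -0.83 and 0.05, and Prune2 by -0.43, -1.40, -0.76, -0.20 and -1.67. Cholesterol synthesis medians were -0.27, -0.27, -0.31, -0.21 and -0.70 over the 5 weeks, and fatty acid synthesis medians -0.05, -0.21, -0.20, -0.17 and -0.49.

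The test of the diet difference between week 8 and week 4 passed for 7 genes (0.0727%), 5 of them downward and 2 upward. An upward value was that of Mzf1, detected on 4 of 33 arrays and so not a measured change. The count was 0 without week 4 high-fat replicate 1, 1 without replicate 2 of either diet, 4 without high-fat replicate 3 and 642 with the median shift, so it is not stable. The actin-binding protein gene Cotl1 read 7.46, 7.39 and 7.56 on normal diet and 7.93, 8.30 and 7.95 on high-fat diet at week 4, and 8.18, 8.54 and 8.12 against 7.38, 7.92 and 7.80 at week 8. It was thus higher on high-fat diet at week 4 (0.59, adjusted p = 0.0374) and lower at week 8 (-0.58, adjusted p = 0.0318), a change of -1.17 (SE 0.20, adjusted p = 0.0147). Rnf146, a ubiquitin ligase gene, went the other way, from -0.35 to 0.34 (adjusted p = 0.0147 for the change). The week 4 calls of Cotl1 and Rnf146 were lost in 10 and 15 of 18 alternative settings. C1qa went from 0.65 at week 4 to -0.29 at week 8 (change -0.94, SE 0.18, adjusted p = 0.033).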

How the data were processed

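RNA of interscapular brown fat was read on Illumina bead arrays. The deposited files hold, for each probe and array, a linear intensity and a detection p-value, and the authors also deposited normalized log2 values. BeadStudio 3.1.3 is named per the submitters' processing notes. The deposited intensity values were background-corrected from the detection p-values, given an offset of 16 and quantile-normalized with limma's neqc. Of 45281 probes 17243 with a detection p below 0.01 on at least 3 of 33 arrays were kept, and the brightest kept probe stood for each of 9630 genes. Probes were named from the platform annotation, and 34885 carried a single symbol, 18 several and 10378 none. One limma model held the 11 diet and week groups of 33 arrays (22 residual and 4.13 prior degrees of freedom), high-fat was compared with normal diet at week 4, and p-values were Benjamini-Hochberg adjusted over all genes at a threshold of 0.05. Diet differences of week 4 were also compared with those of other weeks in the same model.

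The members and gene lists were chosen with earlier results of these data known. Lists, 33 in all, had 521 of 695 entries measured, and are described by counts and medians beside those of all genes. Named genes were the 15 largest rises and falls without overlap, list members that passed and, per list, the 4 of smallest p, a set of fixed genes, the leading genes of the comparisons between weeks, genes detected on all arrays of one diet and none of the other, and genes that passed on the 6 arrays alone. For genes not well above background on any array of one diet, the fold is a lower limit. The model was tested on simulated data. Alternatives changed the background correction, normalization, starting values, detection filter, probe choice, replicate block, array weights, variance prior, a muscle covariate and the arrays fitted. Figures were drawn with matplotlib 3.10.9 under Python 3.11.15, and the fits ran in limma 3.58.1 under R 4.3.3, with files read by the data.table package (1.17.8).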

Additional observations from a re-analysis of the deposited data

Results flagged for a closer look

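Limma's test of the diet difference at week 8 against that at week 4 passed for 7 genes. The count was 0 without week 4 high-fat replicate 1, 1 without replicate 2 of either diet and 642 with the median shift. Adtrp, which hydrolyses a class of fatty acid esters, went from 0.48 at week 4 to -0.90 at week 8, a change of -1.38 (SE 0.23, adjusted p = 0.0147). Its high-fat arrays read 7.87, 7.38 and 7.71 at week 4 and 6.39, 6.63 and 6.61 at week 8, while normal diet stayed between 7.10 and 7.50. Col1a1, a collagen gene named after its values were seen, changed by -1.05 and the translation factor gene Eif4b by -1.49 (adjusted p = 0.033 each). At week 4 the probe used for Eif4b differed by 0.59 and its other kept probe, which was dim, by -0.12. Cotl1 changed by -1.17 and C1qa by -0.94. Rnf146 changed by 0.69. The fitted value for the zinc finger gene Mzf1 was 1.26, but it was detected on 4 of the 33 arrays, so that value is not a measured change and its test carries no weight. Normal diet arrays moved as well in Cotl1, from 7.39 to 7.56 at week 4 to 8.12 to 8.54 at week 8.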

How the results depend on the processing

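Against 115 genes called at week 4, there were 197 without background correction, 62 with a median shift, 180 from the authors' log2 values, 495 with array weights, 181 with a trended robust prior, 1 on the 6 arrays alone and 0 on those with the replicate block by limma (1422 at an unadjusted p under 0.05). Leaving out 1 array gave 53 to 113. The replicate block over all arrays gave 88, and 17 of 66 named calls were lost with it. Deviations from the group means of same-numbered week 4 arrays correlated at -0.014, -0.026 and -0.11. With 3 arrays per mean these values cannot settle whether the numbers pair the arrays. No named call changed sign in 18 settings. Without high-fat replicate 2, normal diet replicate 2 or normal diet replicate 3, 35, 36 and 30 of the 66 were lost, and 24 with the median shift. Testing all 17243 kept probes gave 153 calls (0.887%).

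Week 4 against the mean of other weeks gave 4 genes without background correction, 3 from the authors' values, 1 with the replicate block, 25 with array weights, 2 with the trended prior and 0 to 3 with 1 array left out. Against week 2 array weights gave 10. Week 8 against week 4 (7 genes) gave 2 without background correction, 642 with the median shift, 3 from the authors' values, 4 with the replicate block, 74 with array weights, 4 with the trended prior and 0 to 7 with 1 array left out.

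List medians moved beyond the array spread for cholesterol (-0.19 without background correction, -0.20 from the authors' values, -0.35 with mean probes, -0.38 to -0.26 with 1 array left out), fatty acid oxidation (0.049 with the median shift), thermogenesis (0.039 without background correction, 0.037 with the median shift, 0.11 with the muscle covariate, 0.049 to 0.085 with 1 array left out), white adipocytes (0.0073 without a detection filter) and macrophages (0.21 without background correction, 0.26 from the authors' values). Glycolysis was -0.12 with the median shift, -0.083 with mean probes and -0.073 to -0.021 with 1 array left out. Oxidative phosphorylation was -0.047 with the median shift, turning its direction, and 0.0078 to 0.030 with 1 array left out. Creatine and calcium cycling was 0.061 without a detection filter, 0.019 with the muscle covariate and 0.14 to 0.45 with 1 array left out, and branched-chain breakdown 0.083 to 0.13 with 1 array left out. Uncalled genes that changed sign were Ucp1 (-0.045) and Lpl (-0.019) with the median shift and, with 1 array left out, Cidea (-0.033 to 0.022), Fgf21 (-0.0089 to 0.22) and Pdk4 (-0.049 to 0.0088). The cause was not tested. With 3 arrays per diet, dim probes have only limits.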
